A study of Mus musculus with 6 samples.

Results

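Interleukins and interleukin receptors were examined in mouse colon as the genes whose platform symbol begins with Il and a digit. The array carried 130 probes for 77 such genes, out of 45281 probes in all. The brightest probe, by mean log2 intensity over the 6 arrays, stood for its gene. The control group held 3 colon samples labelled control, and the knockout group 3 colon samples labelled Setd2 KO. All 6 came from the C57BL/6 background at an age of 6 weeks. The labels do not say which cells lost Setd2, how the deletion was made, which alleles the controls carried, or whether each sample came from a separate animal. The p-values therefore measure the spread between these samples. In bulk tissue, fewer cells of a type and less RNA per cell cannot be told apart.

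Interleukins are secreted signals that pass mainly between leukocytes and between leukocytes and epithelium. Their receptors are built from shared chains, so that 1 receptor subunit can serve several cytokines. The interleukin-1 family includes alarm signals such as Il1a, Il1b, Il18 and Il33 and also secreted inhibitors, of which Il1rn, the interleukin-1 receptor antagonist, occupies the receptor without starting a signal. In the gut, interleukins of the IL-17 and IL-10 families act on epithelial cells, where they induce antimicrobial and repair genes.

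Control 2 stood apart from the other arrays. For 2515 genes with a pair of bright probes, the log2 difference between both probes of a gene was set against its median on the other arrays. This measure was chosen after the values were seen. It was off by more than 1 for 54.6% of genes on control 2 and for 3.22% to 6.12% on the other 5 arrays. Control 2 also had 41.6% of all probes at the lowest value of 1, against 33.5% to 36.9% elsewhere. Differences are therefore also given without it for some genes, and the reason was not tested. Where 1 difference is given for a gene, it includes control 2. The brightest Setd2 probe was lower in KO, with a log2 difference of -1.47 and no overlap between groups, while its dimmer probes differed by -0.02 and -0.64. Without control 2, where 1 of these was at the floor, the 3 differences were -1.21, -1.72 and -0.93. The deleted stretch and the probe positions are not given, which limits this check of the labels. All 14 colon epithelium markers were above the 70th percentile of all probes. Exocrine pancreas markers were bright on some arrays, with summed intensities of 103550, 46040 and 6276 in control and 27914, 15933 and 4308 in KO.

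Most interleukin genes were dim in whole colon. Intensities were taken to log2, so that the floor of 1 becomes 0, and a value above 3.92 lay above the 70th percentile of all probes and is called bright. Only 18 of the 77 genes, or 23.4%, had a mean above that line, against 45.3% of all 19057 named genes. The other 59 lay below it, and 24 of these also fell below the 40th percentile (0.96), were left out of the test and are described by their values only. Just above the line were Il13 (4.10) and Il17rb (4.08), and just below it Il10ra and Il1b (both 3.86). Il12rb2, Il17f and Il23r were at the floor on all 6 arrays. Receptors for the IL-17 family and for Il13 gave the brightest signals, Il17rc at 10.66, Il13ra1 at 7.64 and Il17re at 7.62. Probes differ in how well they bind, so this order describes signal and not amounts of RNA.

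**Figure D1:**
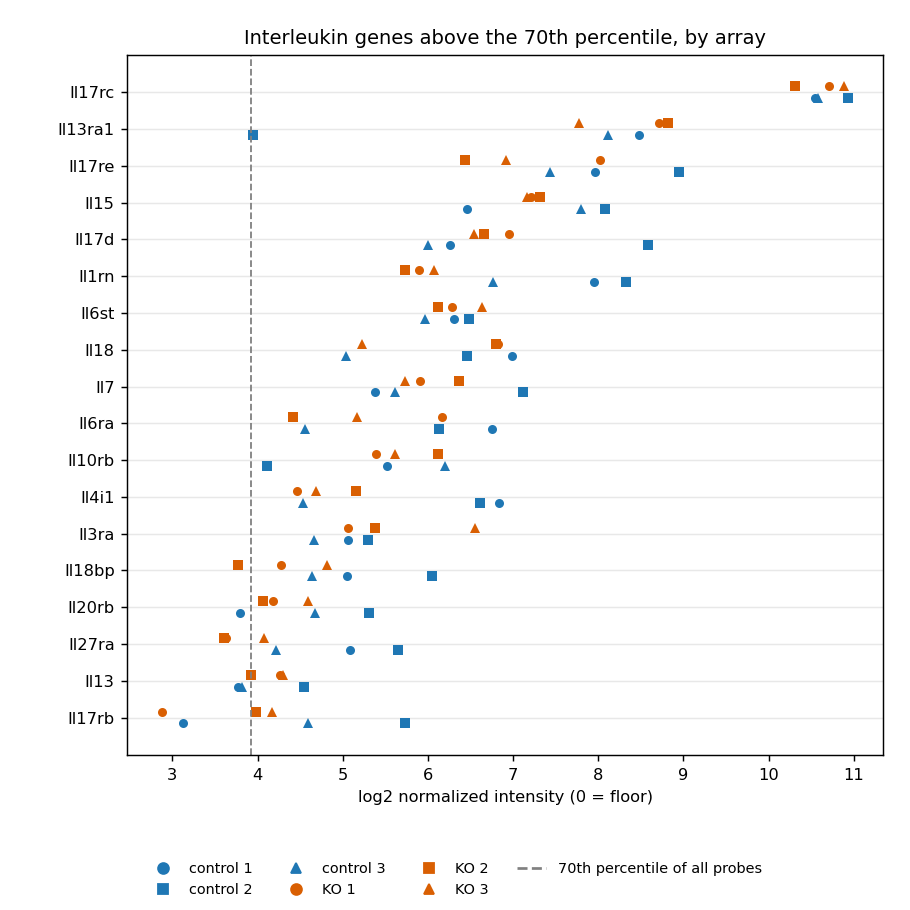
Log2 normalized intensity (x axis) of the 18 interleukin genes above the 70th percentile (rows) on each array, with control in blue, KO in orange and the array number as the marker shape. For Il1rn and Il27ra all 3 orange points lie left of all 3 blue points. Control 2 (blue squares) lies at one end of its group in many rows, at 3.94 for Il13ra1 and 8.59 for Il17d.

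No interleukin gene passed the adjusted threshold between KO and control (limma, Benjamini-Hochberg over 18918 features, adjusted p under 0.05), and 0 features (0%) did in the whole table. At an unadjusted p under 0.05, 5 of the 53 tested interleukin genes (9.43%) were lower in KO, where 2.64% of all features were. None was higher, where 1.66% of all features were, and features in either direction made up 4.30%. The 5 were Il1rn, Il1f6, Il1f8 and Il1f9 of the interleukin-1 family and the IL-27 receptor chain Il27ra. Il1f6, Il1f8 and Il1f9 passed the filter on dim probes through control alone, with KO means under the limit of 0.96, as did Il17b, Il1r2, Il22 and Il2ra. Il5 alone passed through KO only. A member admitted by its control values had to be lower in KO, so the shares, directions and medians of the tested members are a description and are not read against those of all features. Of the 45 members with both group means above the limit, 2 (Il1rn and Il27ra) were lower at an unadjusted p under 0.05. No share of all features filtered in this same way is given, so that count is a description too. The same 5 were the tested members whose groups did not overlap with KO lower, against 5.31% of all features. No tested member was separated with KO higher, against 3.38%. The share of members with a lower mean in KO was 36 of 53 (67.9%), beside 55.4% of all features, and the median log2 difference was -0.31, beside -0.09 over all features. Among the 18 bright members 12 were lower (66.7%), beside 56.0% of bright features. Without control 2, 4 of the 5 still had an unadjusted p under 0.05, again all lower in KO (7.55% of members, beside 2.52% of features), and Il27ra did not. Again 3 of these 4 had entered through control alone. The member median was then -0.36, beside -0.00087 over all features, and no member had p under 0.05 with KO higher (2.55% of features). Separate groups were then found for 6 members with KO lower (8.16% of features) and 5 with KO higher (7.92% of features). Those lower were the 5 named above and Il2ra, and those higher were Il13, Il17d, Il24, Il3ra and Il7.

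**Figure D2:**
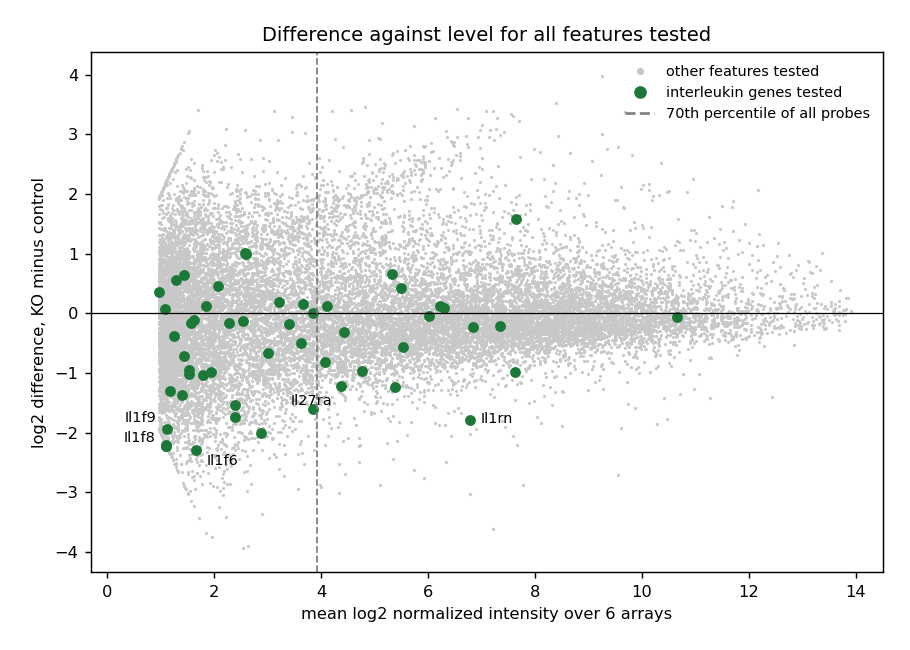
Mean log2 intensity over the 6 arrays (x axis) against the log2 difference, KO minus control (y axis), for the 53 interleukin genes tested (green) and the other features (grey). The 5 labelled genes are those at an unadjusted p under 0.05. Il1rn is the brightest of them, and Il1f6, Il1f8 and Il1f9 lie near the floor.

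Il1rn had the clearest difference among the brighter members. Its intensity was 247, 321 and 109 on control 1, control 2 and control 3 and 59.7, 52.9 and 67.3 on the KO arrays. Every KO array was below every control array, and the KO arrays lay close together. On the log2 scale control averaged 7.68 ± 0.82 (SD, n = 3) and KO 5.90 ± 0.17, a difference of -1.78 (SE 0.51, limma adjusted p = 0.744), which puts the KO geometric mean at 29.1% of control. The exact permutation p was 0.1, the smallest that 3 against 3 arrays allow. Without control 2 the difference was -1.46 (SE 0.45, limma adjusted p = 0.758). This rests on 1 probe, ILMN_3072427. In the settings that kept this probe as the measure of the gene, the difference lay between -2.24 and -1.46 and the unadjusted p stayed under 0.05. With the mean of all 4 Il1rn probes, a setting added after seeing the data, the difference was -0.11 (limma adjusted p = 0.975). The other 3 Il1rn probes lay near the floor, at no more than 2.41 on any array: ILMN_3151270 and ILMN_1233093 had higher means in KO by 0.27 and 1.30, and ILMN_2682566 was at the floor on all but control 1 (0.69). The platform assigns the bright probe and the 2 that were higher in KO to 1 transcript and the remaining probe to another, and neither the probe positions nor the isoform can be read from these values.

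Il1rn is transcribed from more than 1 start. Promoter windows are shown for Il1rn, Il1f8 and Il1f9, the members at an unadjusted p under 0.05 (limma) that had a window. Il1f6 and Il27ra had none. Il1f8 and Il1f9 entered the fit through control alone, and no member passed the adjusted threshold. Windows are from RefSeq (GRCm38.p6), from 250 bases before to 50 bases after a start, and 60 of the 77 members had at least 1. Il1rn had 3, of which the most upstream and the next are printed, and the last overlaps the second. Capitals mark matches on either strand to AP-1 (TGANTCA), STAT (TTCNNNGAA), PU.1 (GAGGAA) or to the ISRE or NF-kB motif.
Il1rn, upstream start, chr2:24336610-24336909, plus strand: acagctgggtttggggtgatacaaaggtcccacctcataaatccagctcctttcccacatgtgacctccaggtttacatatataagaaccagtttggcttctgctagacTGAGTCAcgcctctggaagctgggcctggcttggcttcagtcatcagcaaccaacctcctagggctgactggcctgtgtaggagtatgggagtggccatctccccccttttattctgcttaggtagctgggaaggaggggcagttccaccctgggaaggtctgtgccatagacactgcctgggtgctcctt
Il1rn, downstream start, chr2:24345041-24345340, plus strand: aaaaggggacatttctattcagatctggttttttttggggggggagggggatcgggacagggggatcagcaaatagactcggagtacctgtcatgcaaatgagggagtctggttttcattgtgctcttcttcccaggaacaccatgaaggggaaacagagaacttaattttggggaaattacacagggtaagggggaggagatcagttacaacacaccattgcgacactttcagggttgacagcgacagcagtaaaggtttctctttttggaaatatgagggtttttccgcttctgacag
Il1f8, chr2:24152922-24153221, plus strand: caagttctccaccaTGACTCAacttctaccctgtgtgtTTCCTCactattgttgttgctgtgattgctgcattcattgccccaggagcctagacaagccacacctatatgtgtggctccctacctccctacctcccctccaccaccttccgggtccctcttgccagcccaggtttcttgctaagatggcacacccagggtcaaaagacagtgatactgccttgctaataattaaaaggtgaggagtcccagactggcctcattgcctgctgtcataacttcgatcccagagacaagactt
Il1f9, chr2:24186226-24186525, plus strand: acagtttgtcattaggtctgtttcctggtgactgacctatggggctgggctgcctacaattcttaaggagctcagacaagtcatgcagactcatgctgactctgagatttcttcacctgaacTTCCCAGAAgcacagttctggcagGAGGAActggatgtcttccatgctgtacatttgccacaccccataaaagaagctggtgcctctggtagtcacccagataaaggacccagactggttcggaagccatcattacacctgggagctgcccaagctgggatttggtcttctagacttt
The upstream Il1rn window held 1 AP-1 match, at base 110 from its 5′ end, and the downstream window held no match to any of the 5 motifs. Il1f8 held an AP-1 match at base 15 and, on the reverse strand, a PU.1 match at base 39, and Il1f9 a STAT match at base 123 and a PU.1 match at base 147. No motif occurred in all 4 windows. Of 32851 windows of this length, 7.81% held the AP-1 motif, 8.30% STAT, 28.3% PU.1, 3.44% ISRE and 8.46% NF-kB. These are letter matches and not shown to be bound.

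Il1f6, Il1f8 and Il1f9 are older symbols for the IL-36 cytokines alpha, beta and gamma, agonists known from skin and other barrier epithelia that act through Il1rl2. Il1f6 measured 3.05, 2.89 and 2.47 on the control arrays and was at the floor on KO 1 and KO 2 and at 1.53 on KO 3. Il1f8 measured 1.91, 2.51 and 2.21 in control and did not leave the floor in KO. Il1f9 measured 1.83, 3.55 and 0.92 in control and 0.48 on KO 2, with KO 1 and KO 3 at the floor. For each of the 3 genes no KO array reached the lowest control array. The limma adjusted p was 0.499 for Il1f6, 0.400 for Il1f8 and 0.940 for Il1f9. All 3 entered the fit only through control, so these values carry no support for a difference. Since values at the floor have no order, no fold change is given. All control values of the 3 genes lay below the 70th percentile of all probes. With values under 8 set to 8, or with log2(value + 16), none of the 3 had an unadjusted p under 0.05 (limma), while Il1rn did. Every Il1f8 intensity lay under 8, and Il1f6 and Il1f9 exceeded it only on control 1 (8.30) and control 2 (11.7). The raised floor therefore left little or nothing to test in these genes, whereas no Il1rn intensity was under 52.9.

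In the RefSeq gene order of chromosome 2, Il1f8, Il1f9, Il1f6, Il1f5, Il1f10 and Il1rn follow each other, with 2 pseudogenes between them and no other gene. Both remaining members of this run were near the floor. Il1f5, the IL-36 receptor antagonist, was above the floor on control 2 (1.27) and KO 1 (0.15) alone. Il1f10, also called IL-38, measured 1.83, 2.48 and 0.00 in control and 0.00, 1.03 and 2.16 in KO. The neighbour next to Il1rn, Psd4, was bright and overlapped between groups, at 7.51 ± 0.52 in control and 7.36 ± 0.43 in KO. On the other side Tbpl2 was near the floor, at 1.00 and 1.07. This view of neighbours was chosen after the values were seen. Il1a and Il1b lie elsewhere on the same chromosome.

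Markers of stratified squamous epithelium, a tissue where IL-36 cytokines and Il1rn are known to be made, separated the groups as a sum and not as a mean of logs. Summed over the 14 markers, the intensity was 244, 577 and 245 in control and 172, 141 and 195 in KO, with no overlap. Without Krt10 the sums overlapped, at 148, 317 and 114 in control and 106, 73.0 and 122 in KO. The mean log2 over the 14 overlapped too, at 1.89, 2.44 and 1.75 in control and 2.01, 1.90 and 1.99 in KO. Only Krt14, Krt10 and Lor of the 14 were above the 70th percentile. Krt10, a keratin of the upper layers of skin, measured 6.58, 8.02 and 7.03 in control and 6.03, 6.09 and 6.19 in KO, with no overlap, and the groups overlapped for the other 13. Krt5 and Trp63, which mark the basal layer, were at the floor on 2 control and 2 KO arrays each, and Krt6a on 3 and 2. The part of these markers in the Il1rn difference was not tested. The IL-36 values carry no support for a difference, so none is set against these markers.

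**Figure D3:**
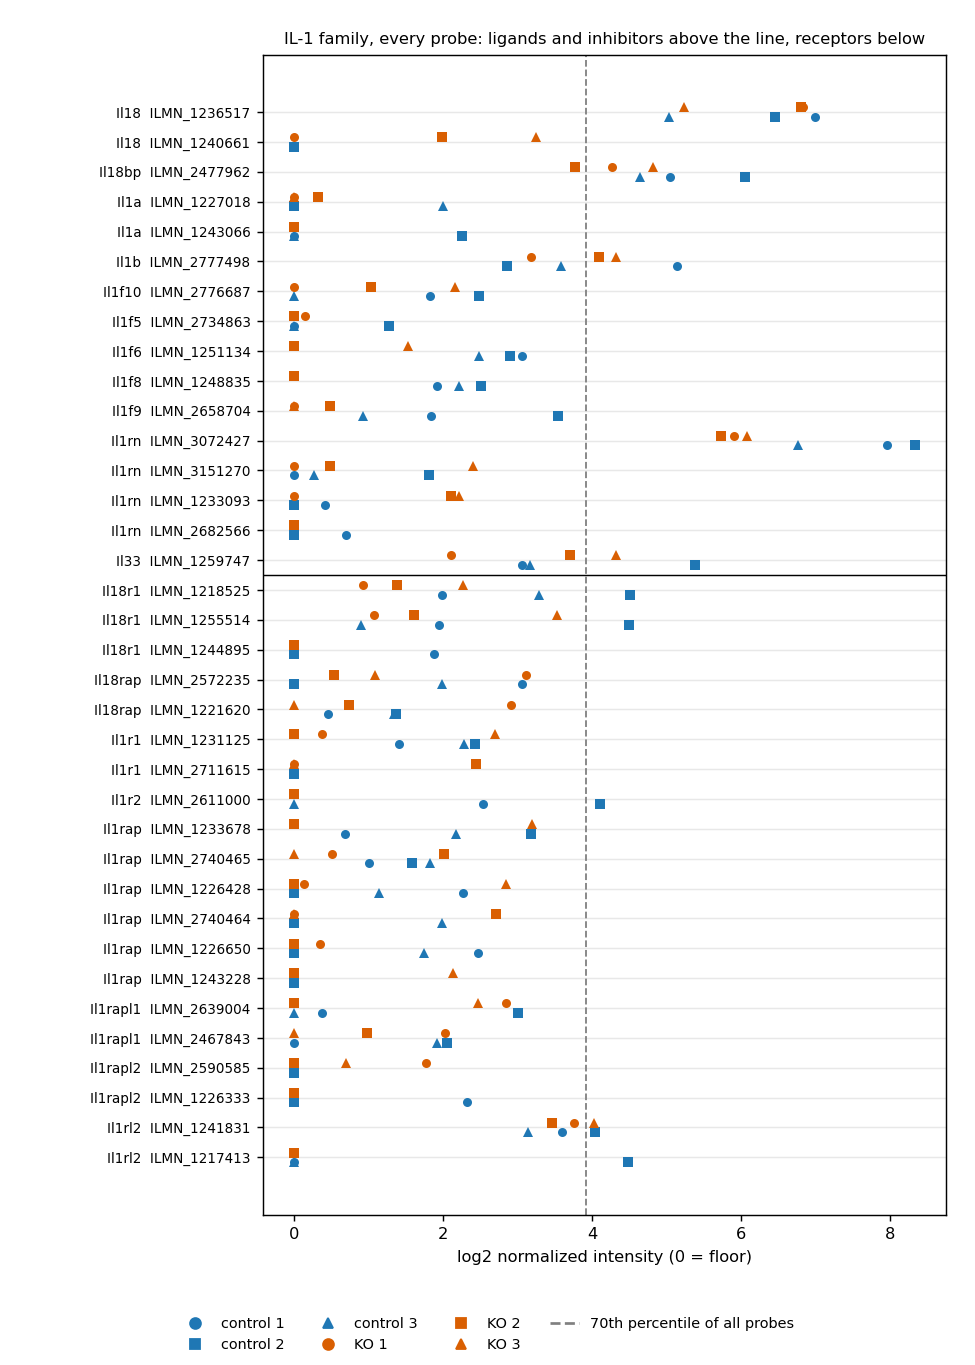
Log2 normalized intensity (x axis) of all 36 probes of the 19 interleukin-1 family genes (rows), with ligands and inhibitors above the line and receptors below it. Control is blue, KO orange, the marker shape gives the array number, and points at the floor of 0 lie on top of each other. Only 3 probes, 1 each of Il18, Il18bp and Il1rn, have a mean right of the dashed line.

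The other interleukin-1 family ligands did not separate the groups. Il18, which epithelial cells store as a precursor cleaved by caspase-1, measured 6.98, 6.46 and 5.03 in control and 6.82, 6.80 and 5.23 in KO, a difference of 0.13 (SE 0.71). Control 3 and KO 3 were the low arrays of their groups. Il18bp, the secreted inhibitor of Il18, measured 5.05, 6.05 and 4.64 in control and 4.27, 3.77 and 4.82 in KO, a difference of -0.96 (SE 0.54, limma adjusted p = 0.940) that was -0.56 without control 2. Its groups overlapped through KO 3 and control 3. Il1b, the main secreted agonist made by myeloid cells, was just below the 70th percentile at 5.13, 2.86 and 3.58 in control and 3.17, 4.09 and 4.32 in KO, with equal means of 3.86. Il33, a nuclear alarm signal of stromal and epithelial cells, measured 3.06, 5.38 and 3.16 in control and 2.10, 3.70 and 4.32 in KO. Its difference of -0.49 was 0.26 without control 2. The dimmer Il18 probe was at the floor in control and on KO 1, and measured 1.98 on KO 2 and 3.24 on KO 3. Both Il1a probes were at the floor on at least 4 of 6 arrays, with no value over 2.25.

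All 8 interleukin-1 family receptor genes lay below the 70th percentile, and none of the 7 tested had an unadjusted p under 0.05. Il18r1, the ligand-binding chain for Il18, came closest, with 1.98, 4.51 and 3.28 in control and 0.92, 1.38 and 2.26 in KO (unadjusted p = 0.0539 and adjusted p = 0.940 in limma). KO 3 overlapped control 1, and the next Il18r1 probe, at nearly the same level, differed by -0.37. Il1r2, the decoy receptor that binds interleukin-1 without signalling, was above the floor only on control 1 (2.54) and control 2 (4.11). Il1r1, the signalling receptor, measured 1.40, 2.43 and 2.27 in control and 0.38, 0.00 and 2.69 in KO. Il1rl2, the IL-36 receptor, was the brightest of the group, at 3.60, 4.04 and 3.14 in control and 3.76, 3.46 and 4.03 in KO. Its dimmer probe was above the floor on control 2 (4.48) alone, and that of Il1r1 on KO 2 (2.45) alone. The shared accessory chain Il1rap had 6 probes, all with means of 1.53 or less. Il18rap, Il1rapl1 and Il1rapl2 were near the floor in both groups, with every probe at 3.11 or less.

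The IL-17 receptor chains held the brightest member, and none of the 5 separated the groups. Il17rc, the chain that pairs with Il17ra to bind IL-17A and IL-17F, measured 10.54, 10.94 and 10.58 in control and 10.71, 10.31 and 10.89 in KO, a difference of -0.05 (SE 0.39). Of its other probes ILMN_2785353 differed by -0.10 and ILMN_2695344 by 0.38, the latter being 8.34 on control 2 and 9.58 to 10.11 on the other 5 arrays. Il17re, the epithelial receptor chain for IL-17C, measured 7.96, 8.95 and 7.44 in control and 8.03, 6.43 and 6.92 in KO, a difference of -0.99 (SE 0.62, limma adjusted p = 0.940) that was -0.58 without control 2. KO 1 lay among the controls, and its second bright probe differed by -0.34. Il17rb, the receptor for Il25, measured 3.12, 5.73 and 4.60 in control and 2.87, 3.98 and 4.17 in KO. Its difference of -0.81 was -0.18 without control 2. Il17ra measured 3.90, 0.00 and 2.30 in control and 2.86, 2.72 and 3.66 in KO, so its difference of 1.02 fell to -0.02 without control 2. Il17rd, a modulator of fibroblast growth factor signalling as well, measured 2.92 to 3.40 in control and 3.34, 0.00 and 1.55 in KO.

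Of the IL-17 cytokines, Il17d alone was bright, and its probes disagreed. The brighter measured 6.26, 8.59 and 6.00 in control and 6.95, 6.65 and 6.54 in KO, a difference of -0.23 that was 0.59 without control 2. The dimmer measured 3.22, 0.00 and 1.56 in control and 3.60, 4.50 and 3.87 in KO, a difference of 2.40. Control 2 was the highest array on one probe and at the floor on the other. Il17a, the product of Th17 cells, measured 3.40, 1.65 and 2.78 in control and 1.54, 2.54 and 3.37 in KO. Il25, made by tuft cells, measured 2.36, 0.00 and 3.02 in control and 1.85, 2.52 and 1.35 in KO. Il17b measured 0.04, 4.30 and 1.89 in control and 0.00, 2.14 and 0.00 in KO. Il17c was not tested, and its brightest value was 1.99.

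Among cytokines of the common gamma chain, Il15 and Il7, which sustain intraepithelial lymphocytes and other T cells, were bright on their brightest probe. Il15 measured 6.45, 8.08 and 7.80 in control and 7.21, 7.32 and 7.17 in KO. Its difference of -0.21 (SE 0.53) was 0.10 without control 2. The KO arrays lay between the control arrays, and the second Il15 probe differed by 0.02. The next differed by -0.34, and the remaining Il15 probes were at 2.08 or less on every array. Both dimmer Il7 probes were at 2.90 or less on every array. Il7 measured 5.38, 7.12 and 5.61 in control and 5.90, 6.36 and 5.73 in KO, a difference of -0.04 that was 0.50 without control 2, where the KO arrays were all above both remaining controls. Il2, Il4, Il9 and Il21 were below the tested range.

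Of their receptors 3 were tested, and all 7 lay below the 70th percentile. Il15ra, which presents Il15 to neighbouring cells, measured 4.54, 4.30 and 2.83 in control and 1.85, 3.78 and 0.00 in KO on its brightest probe. Its second probe went the other way, at 2.99, 0.00 and 1.42 in control and 3.56 to 3.74 in KO, so no direction is given. Il2ra, a marker of regulatory and activated T cells, measured 1.69, 1.22 and 2.55 in control and 0.00, 0.00 and 1.58 in KO. Il7r, which T cells and innate lymphoid cells need to respond to Il7, was at 2.46 to 3.47 in control and 3.16 to 3.49 in KO. Il2rb, Il4ra, Il9r and Il21r were not tested.

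Il27ra, the receptor for IL-27 on T cells and other leukocytes, was the other bright member whose groups did not overlap. These 2 were 11.1% of the 18 members above the 70th percentile, beside 4.70% of such features, and no bright member was separated with KO higher, beside 2.78%. Il27ra measured 5.08, 5.64 and 4.21 in control and 3.63, 3.60 and 4.08 in KO. Control 3 and KO 3 nearly met. The mean ± SD (n = 3 each) was 4.98 ± 0.72 for control against 3.77 ± 0.27 for KO, a difference of -1.21 (SE 0.49, limma adjusted p = 0.940). It was -0.88 without control 2, with a limma adjusted p of 1.00. Its second probe lay near the floor and differed by -0.22. Ebi3, the subunit that forms IL-27 with the Il27 gene product, had a mean below the 70th percentile. It measured 4.27, 4.37 and 3.85 in control and 2.06, 2.12 and 3.31 in KO. These groups did not overlap, as for 5.31% of all features with KO lower. The Ebi3 difference was -1.67 (SE 0.49, limma adjusted p = 0.753). Without control 2 it differed by -1.56. Il27 itself was above the floor on control 1 (1.45) and KO 2 (0.33) alone.

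T and NK cell markers, which could carry Il27ra, were lower in KO for some genes and not as a sum. Of 13 with a probe, 7 were above the 70th percentile. Cd3d, Zap70 and Nkg7 had no overlap between groups, all with KO lower, as 4.70% of bright features did. Of the 11 tested, 8 had a lower mean in KO and 3 a higher one. The mean log2 over the 13 overlapped, at 4.21, 3.92 and 4.20 in control and 3.69, 3.94 and 3.92 in KO. Cd3d, part of the CD3 signalling complex, measured 7.36, 7.15 and 6.74 in control and 5.61, 5.90 and 5.94 in KO. The summed intensity was 1706 to 1964 in control and 1659 to 2016 in KO, most of it from Cd8b1. Cd5 was at the floor on all 6 arrays. The part of these markers in the Il27ra difference was not tested.

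The remaining receptors of the gp130 group overlapped. Il6st, the gp130 chain shared by Il6 and Il11, measured 6.31, 6.49 and 5.97 in control and 6.29, 6.11 and 6.64 in KO, a difference of 0.09 (SE 0.39). Il6ra, which binds Il6, measured 6.75, 6.13 and 4.56 in control and 6.17, 4.41 and 5.16 in KO, a difference of -0.57 (SE 0.74). Its dimmer probes differed by -0.24 and 1.27, so the probes disagreed. Il31ra was at the floor on control 3 and KO 2 and varied up to 4.40. The cytokines were dim: Il6 measured 2.86, 2.78 and 1.64 in control and 2.28, 0.00 and 2.07 in KO, and Il11 was at the floor on 1 array of each group. Il31 was above the floor on control 1 (1.09) alone.

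In the IL-12 family, whose cytokines steer T cells toward interferon or IL-17 production, Il23a and Il12a were tested. Il23a measured 2.44, 3.66 and 3.90 in control and 3.46, 1.23 and 3.33 in KO, and Il12a 2.04, 0.00 and 2.92 against 0.00, 1.89 and 2.59. Neither separated the groups. All 3 receptor genes of this family were below the tested range, with Il12rb2 and Il23r at the floor throughout.

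Il13ra1, the receptor chain through which Il13 reaches epithelium and smooth muscle, had a raw difference that rested on control 2. It measured 8.48, 3.94 and 8.12 in control and 8.72, 8.82 and 7.77 in KO. The difference was 1.59 (SE 1.22, limma adjusted p = 0.940) with control 2 and 0.14 without it. Il3ra, the Il3 receptor chain, measured 5.06, 5.29 and 4.67 in control and 5.06, 5.38 and 6.55 in KO, a difference of 0.66 (SE 0.52). KO 3 was the high array. Il13 itself was just above the 70th percentile, at 3.77, 4.55 and 3.81 in control and 4.26, 3.92 and 4.30 in KO. Il5 was at the floor on 1 control and 2 KO arrays, and Il13ra2, Il5ra and Il3 were not tested.

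Within the IL-10 family 2 of the 6 receptors were bright, Il10rb and Il20rb, and none of the 5 cytokines was. Il10ra, the ligand-binding chain carried by leukocytes, measured 5.06, 5.04 and 3.87 in control and 1.46, 3.67 and 4.06 in KO, a difference of -1.60 (SE 0.79, limma adjusted p = 0.940), and KO 3 overlapped control 3. Il10rb, the chain shared with the IL-22 receptor, measured 5.52, 4.11 and 6.20 in control and 5.39, 6.12 and 5.61 in KO, a difference of 0.43 that was -0.15 without control 2. Its dim probe differed by -2.51, with KO 3 at the floor, so the probes disagreed. Il20rb and Il20ra together form a receptor for Il19, Il20 and Il24, and both overlapped, with differences of -0.31 and -0.17. These were 0.045 and 0.18 without control 2. Il22ra1, the epithelial receptor for IL-22, was at 2.93 or less on every array, and Il22ra2, its soluble decoy, at 2.20 or less. Il22 was above the floor only on control 2 (3.99) and control 3 (2.66). Il24 measured 1.31, 2.72 and 1.49 in control and 2.48, 1.70 and 2.74 in KO. Il19 was below the tested range, and measured 0.71, 3.29 and 1.38 in control and 0.34 on KO 2, with the other KO arrays at the floor. Il20 was above the floor on KO 2 (2.21) alone, and Il10 on control 2 (1.84), KO 2 (0.66) and KO 3 (2.39).

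The rule also took in 3 genes outside these families. Il4i1 is an amino acid oxidase of myeloid and B cells and no cytokine. It measured 6.84, 6.61 and 4.53 in control and 4.46, 5.16 and 4.68 in KO, a difference of -1.23 (SE 0.69, limma adjusted p = 0.940), with control 3 among the KO arrays. Il16, a chemoattractant for CD4+ cells, measured 4.57, 0.00 and 1.76 in control and 3.02, 3.13 and 3.15 in KO, a difference of 0.99 that was -0.06 without control 2. Il34, a ligand of the macrophage receptor Csf1r, was at 1.52 to 2.95 in control and 1.31 to 3.09 in KO. Summed macrophage and monocyte markers ranged from 1118 to 4373 in control and from 1510 to 2558 in KO.

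**Figure D4:**
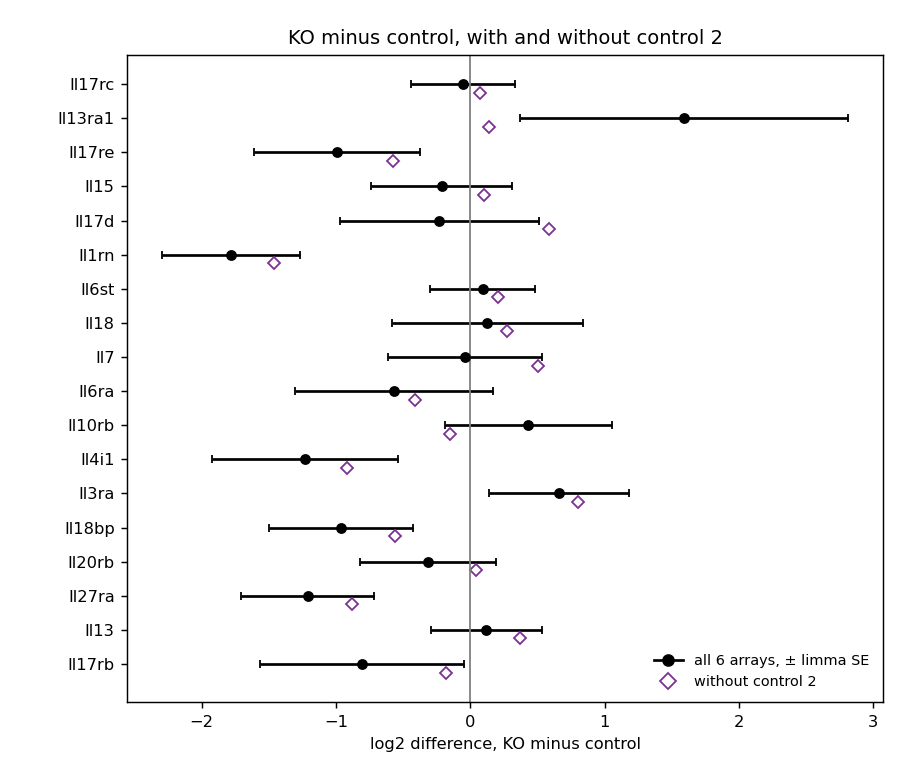
Log2 difference, KO minus control (x axis), for the 18 interleukin genes above the 70th percentile (rows). Filled points use all 6 arrays with limma's standard error, and open diamonds leave out control 2. Il1rn is at -1.78 and -1.46, while Il13ra1 moves from 1.59 to 0.14 and Il17d from -0.23 to 0.59.

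Genes that carry interleukin signals inside cells were mostly bright and showed few differences. Of 24 tested genes of interleukin-1 receptor and inflammasome signalling, 0 had an unadjusted p under 0.05 (limma) and none had separate groups, and the median difference was -0.10. Casp1, the protease that activates Il1b and Il18, averaged 11.87 in control and 11.75 in KO, and the adaptor Myd88 10.10 and 10.11. Sigirr, an inhibitory receptor of the family, differed by 2.58, and by 0.48 without control 2, where it was at the floor. Nfkbiz, an NF-kB cofactor induced by interleukin-1 and IL-17, differed by -0.99 (SE 0.66), and by -0.51 without control 2. Of 20 tested JAK, STAT and SOCS genes, 1 was lower at an unadjusted p under 0.05 and none higher, beside 2.64% and 1.66% of all features, so that the share is near the background. That gene was Socs1, a feedback inhibitor of cytokine receptors, at 3.72, 5.02 and 3.09 in control and 2.44, 0.00 and 1.75 in KO (limma adjusted p = 0.854). Socs3, the feedback inhibitor of gp130 signalling, measured 7.18, 7.18 and 6.65 in control and 6.19, 6.02 and 6.61 in KO, also without overlap, a difference of -0.73 (SE 0.40, limma adjusted p = 0.940). The median of this list was 0.05, and -0.24 without control 2.

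Of 10 tested subunits and partners under other names, 1 was lower (Ebi3) and 1 higher at an unadjusted p under 0.05, beside the same 2.64% and 1.66% of features. The one higher was Tslp, an epithelial cytokine near the floor. Tslp measured 0.00, 0.00 and 1.43 in control and 2.21, 2.77 and 1.53 in KO. It passed the filter on dim probes through KO alone, so it had to be higher in KO. Its p-value therefore carries no support for a difference, and its count is not read against the share of all features. Osm, the oncostatin of leukocytes, measured 3.70, 3.91 and 3.41 in control and 2.22, 1.97 and 3.96 in KO. Of 12 tested epithelial genes known to respond to IL-22 or IL-17, none had an unadjusted p under 0.05 and 7 had a higher mean in KO. The median difference of the 12 was 0.45, and 0.07 without control 2. Reg3b and Reg3g, secreted antimicrobial lectins, differed by 2.07 (SE 1.20) and 2.29 (SE 1.04), while Saa1 differed by 1.13 and by 0.14 without control 2. Their groups overlapped, and Reg3b was lowest on control 1 at 6.65 against 9.69 to 12.37 on the other arrays.

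**Figure D5:**
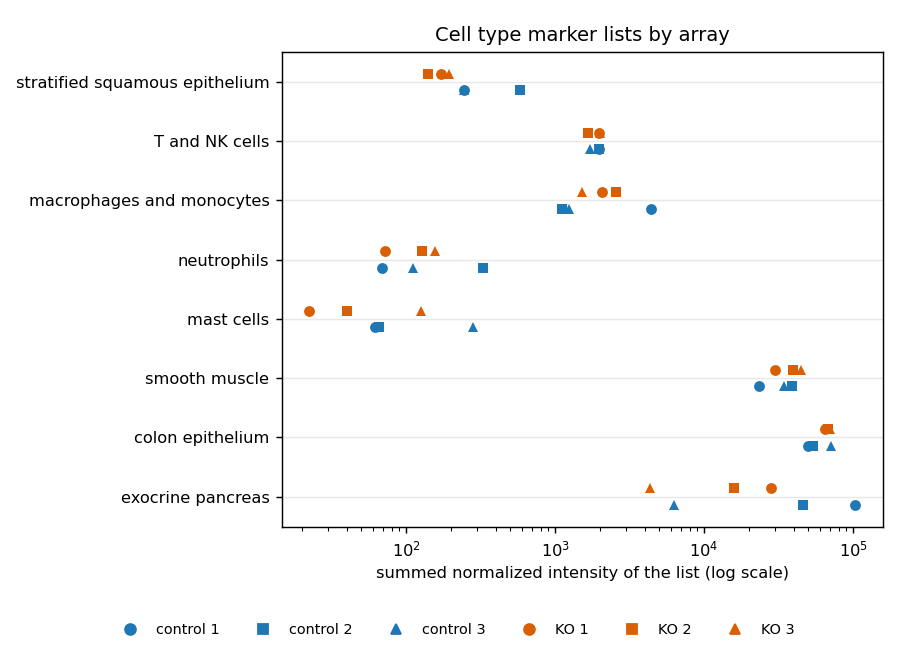
Summed normalized intensity (x axis, log scale) of 8 cell type marker lists (rows) on each array, with control in blue and KO in orange. The squamous list is the one shown with separate groups, at 141 to 195 in KO and 244 to 577 in control, a separation that is lost without Krt10. The pancreas list ranges from 4308 to 103550.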

How the data were processed

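Colon RNA from 3 control and 3 KO samples was hybridised to Illumina bead arrays. Per the labels' protocols, RNA was taken up in Trizol, cleaned on RNeasy columns with DNase I and amplified to biotinylated cRNA. The values the authors deposited are linear probe intensities. The software behind them is not given in the sources used here. All 6 arrays share 1 median (3.82) and 1 maximum (16715), so a shift of most genes cannot be read. The 12 columns of a further unnormalized table match no sample's labels and were not used.

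The deposited intensities were log2 transformed with no offset. Of 45281 probes, 34885 had 1 gene symbol in the platform annotation, 18 had several and 10378 none, and 0 symbols needed an update in RefSeq. Probes above the 40th percentile of mean log2 were kept (27168), the brightest per gene, giving 18918 features. Moderated 2-sided tests of KO against control came from limma 3.58.1 under R 4.3.3, their p-values adjusted by Benjamini-Hochberg across the 18918 features. The fit was tested on simulated data that had no floor, with changes placed only in bright features. That check does not cover genes near the floor. The number of arrays limits the precision. The members, gene lists and tests were chosen with earlier results of these data known. Genes named are all of the interleukin-1 family, the 10 brightest members, bright members without overlap between groups, up to 3 members of smallest p per family, and up to 4 per signalling list. Others were named after their values were seen.

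Same-numbered samples did not deviate together (r = 0.16, -0.09 and 0.04 over features for numbers 1, 2 and 3), so the numbers were not taken to pair samples. Alternatives were other filters, a floor, an offset, normalization, probe rule, variance model, the replicate block and leaving out each array. A mean over every probe of a gene was added after seeing the data.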

Additional observations from a re-analysis of the deposited data

How the results depend on the processing

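No interleukin gene passed the adjusted threshold under any of the 16 alternatives. Over all features 11 passed without a filter on dim probes and 1 with values under 8 set to 8, against 0 otherwise. The count of interleukin genes at an unadjusted p under 0.05 (5) was 2 with only probes above the 70th percentile, 2 with log2(value + 16), 2 with values under 8 set to 8, 3 with eBayes with trend and robust, and 4 to 7 when single arrays were left out. With the replicate block it was 7, the numbers are not shown to pair samples, and 0 interleukin genes were called. The member median ranged from -0.78 (without KO 3) to -0.20 when arrays were left out, and was -0.04 with values under 8 set to 8. Il1rn was lower in KO at an unadjusted p under 0.05 in 16 of 17 fits and Il27ra in 8 of 17. The IL-36 genes were absent from the fit above the 70th percentile, and of 16 fits Il1f6 and Il1f8 met this in 14 and Il1f9 in 9. These genes passed the filter through control alone, so their counts of fits carry no support for a difference. The planned mean of the probes that passed the filter could not move Il1rn, Il1f6, Il1f8 or Il1f9, which have 1 such probe each. The mean of every probe, added after seeing the data, gave -0.11 for Il1rn (limma unadjusted p = 0.820) and reversed Il20rb (0.15), because its dim probes enter with equal weight. Of the other 17 bright members 7 kept their direction throughout. With either mean of probes, differences reversed for Il17rc (0.077), Il17d (1.08), Il6ra (0.15) and Il10rb (-1.04). Leaving out single arrays gave ranges that crossed 0 for Il17rc (-0.18 to 0.11), Il15 (-0.71 to 0.10), Il17d (-0.71 to 0.59), Il7 (-0.37 to 0.50), Il10rb (-0.15 to 0.89), Il20rb (-0.71 to 0.045), Il13 (-0.019 to 0.37), Il6st (-0.055 to 0.21) and Il18 (-0.43 to 0.66). The cause was not tested. Signal over the floor limits 59 of the 77 genes.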
